A study of Mus musculus with 16 samples.

Results

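The 10 genes Klk5 to Klk14 encode the kallikrein-related serine proteases known from the epidermis, and every one of them was higher in mouse libraries made after IL-23 treatment than after vehicle. They were chosen by symbol from a table of 26357 genes, and all 10 symbols were found. RNA was sequenced from 16 libraries in 4 groups of 4. The groups were IL-23 with an oral (per os, PO) vehicle, IL-23 with an intraperitoneal (IP) vehicle, vehicle with an oral vehicle and vehicle with an intraperitoneal vehicle. The vehicle dosed by each route held 0 mpk of compound in all 16. Strain, age, sex, tissue and time of harvest are not given in the labels, so the tissue is known only from the genes measured. The labels do not say that each library came from its own mouse, so a p-value here sets a difference against the spread among the libraries at hand, which may be technical.

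Library totals ran from 6381990 to 10078531 counts after IL-23 and from 7159325 to 14432930 counts after vehicle. Keratinocyte genes were abundant in both agents: Krt14, a basal keratin, averaged 13010 ± 2230 CPM (counts scaled for library size) after IL-23 and 7006 ± 984 CPM after vehicle (SD, n = 8 each). Krt1, the suprabasal keratin, averaged 9957 ± 2400 CPM after IL-23 and 918 ± 355 CPM after vehicle. Another keratinocyte gene, Col17a1, was lower after IL-23, at 1239 ± 102 CPM, than after vehicle, at 2945 ± 247 CPM. The epidermal label of the genes thus stands beside a clear keratinocyte signal in all libraries, mixed with that of other tissues, skeletal muscle among them. A pair of intraperitoneal libraries lay at the ends of the IL-23 spread, number 25 at the high end of the kallikreins and of the granular-layer genes and number 28 at the low end of both. The intraperitoneal values are given without each of them below.

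Kallikrein-related peptidases are secreted as inactive zymogens, and in the epidermis they are made in the granular layer and released into the cornified layer. There they cleave the corneodesmosome proteins that hold the outermost cells together, so that cells are shed, and they also act on the protease-activated receptors, on cytokine precursors and on antimicrobial peptides. KLK5 can activate itself and other members of the family, and LEKTI, the product of Spink5, holds the proteases in check. Loss of LEKTI in people causes Netherton syndrome, in which the barrier fails.

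IL-23 libraries lay above vehicle libraries for all 10 genes, with no overlap between the 4 IL-23 and the 4 vehicle libraries of either route, nor between the 8 and the 8. Among the 14671 genes tested, 27.9% separated in that way and direction in the oral libraries, 25.1% in the intraperitoneal libraries and 19% in both together. Klk14 is not among these 14671 genes, so the shares stand beside the other 9 members only. By edgeR's quasi-likelihood test (adjusted p below 0.05), the 9 kallikrein genes that passed the count filter were called higher in each route, where 29.2% of all genes tested were called higher by the oral comparison and 30.8% by the intraperitoneal one. Every one of the 9 was also at least doubled, which held for 7.74% of genes in the oral and 7.71% in the intraperitoneal comparison. Klk12 passed the filter only through its IL-23 libraries, so its place among the 9 carries no weight. Klk14 did not pass, and was tested with no count filter over 20799 genes, where 21.5% were called higher by the oral and 22.6% by the intraperitoneal comparison, and all 10 members were. In that fit the median log2 fold change of all 10 was 2.97 in the oral comparison, beside -0.04 over all genes, and 2.66 in the intraperitoneal comparison, beside -0.01.

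**Figure D1:**
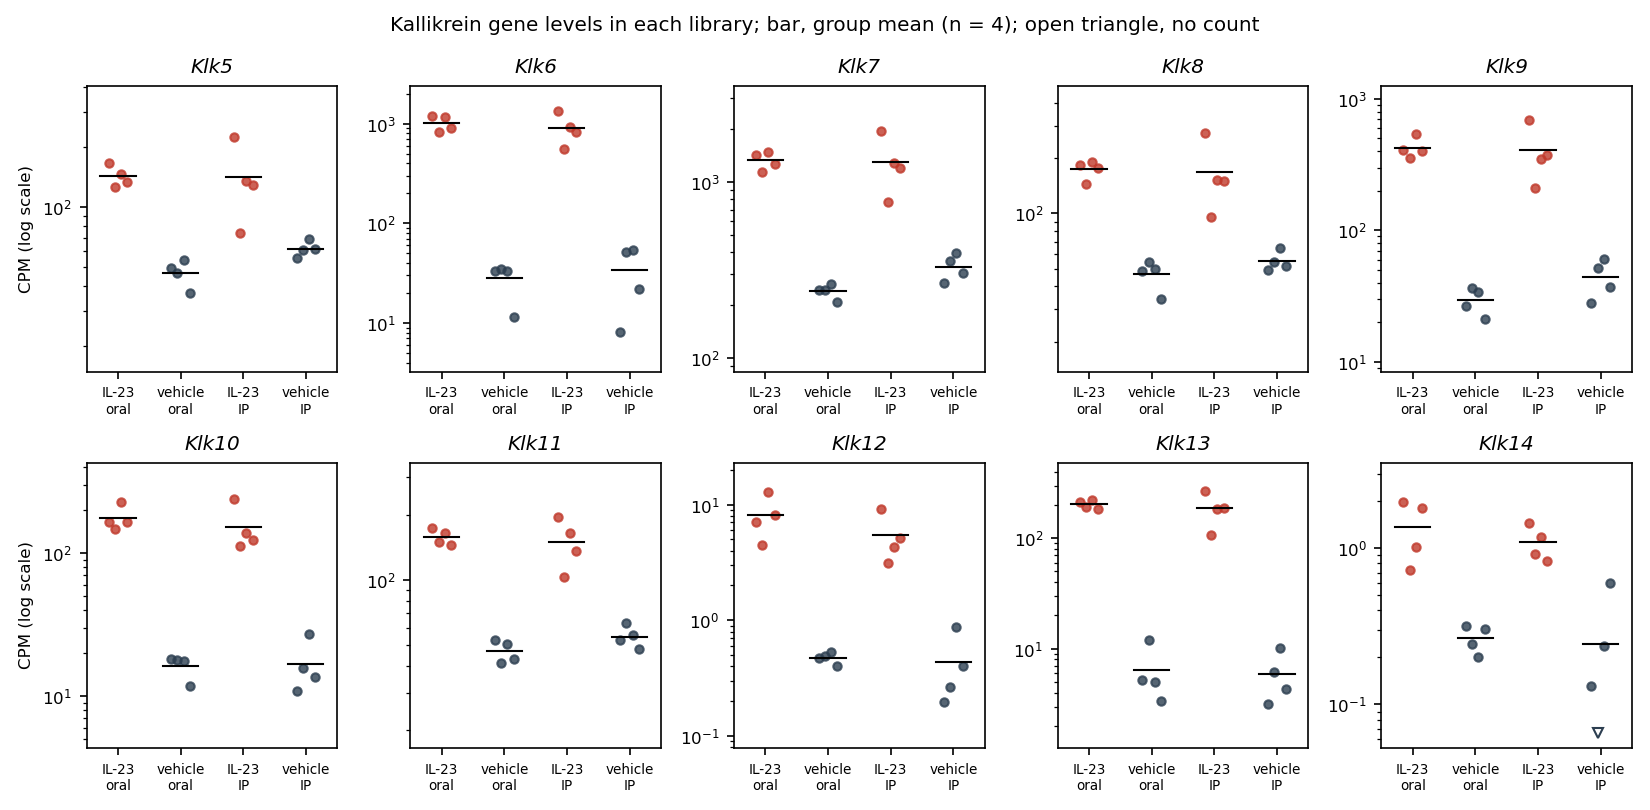
Level of each of the 10 kallikrein genes in CPM on a log axis, 1 point per library, with the IL-23 group (red) left of the vehicle group (blue) of the same route and a bar at the mean of 4 libraries. In all 10 panels the IL-23 points lie above the vehicle points of both routes, and the open triangle marks the vehicle library with no Klk14 count.

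The sizes of the rises fell into a wide range. Averaged over routes, Klk13 and Klk6 rose by about 5 log2 units, Klk12, Klk9 and Klk10 by 3.30 to 3.81, and Klk7, Klk8, Klk11 and Klk5 by 1.40 to 2.22, with Klk14 at 2.24 ± 0.39 from few counts. All 10 genes lie on the plus strand of mouse chromosome 7, in a stretch of 170.3 kb (chr7:43680880-43851181, GRCm38), in the order Klk14, Klk13, Klk12, Klk11, Klk10, Klk9, Klk8, Klk7, Klk6, Klk5. Genes with large and small rises were interleaved along it: Klk11 lies between Klk12 and Klk10, and Klk6 lies between Klk7 and Klk5.

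The 250 bases before a transcript start of 3 members are shown because they span the range of the response: Klk13 with the largest rise, Klk10 with an intermediate one and Klk5 with the smallest. They are from RefSeq, build GRCm38.p6, plus strand, written 5' to 3', at chr7:43712317-43712566 for Klk13, chr7:43780804-43781053 for Klk10 and chr7:43842019-43842268 for Klk5. For Klk13 and Klk10 that start is the first base of the gene as annotated, while for Klk5 it is a transcript start 8112 bases inside the annotated gene. Capitals in Klk10 mark TTCTCAGAA, a match to the STAT letters TTCNNNGAA that begins 238 bases before that start.
Klk13: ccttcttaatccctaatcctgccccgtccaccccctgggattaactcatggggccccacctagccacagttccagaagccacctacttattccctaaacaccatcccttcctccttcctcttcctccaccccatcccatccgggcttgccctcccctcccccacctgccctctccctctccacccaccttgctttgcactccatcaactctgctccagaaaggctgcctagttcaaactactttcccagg
Klk10: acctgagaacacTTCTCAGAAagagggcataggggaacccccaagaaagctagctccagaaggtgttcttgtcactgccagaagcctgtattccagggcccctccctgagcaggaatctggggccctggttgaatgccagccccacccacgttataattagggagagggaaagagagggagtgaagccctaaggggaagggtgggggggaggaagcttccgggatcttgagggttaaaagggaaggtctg
Klk5: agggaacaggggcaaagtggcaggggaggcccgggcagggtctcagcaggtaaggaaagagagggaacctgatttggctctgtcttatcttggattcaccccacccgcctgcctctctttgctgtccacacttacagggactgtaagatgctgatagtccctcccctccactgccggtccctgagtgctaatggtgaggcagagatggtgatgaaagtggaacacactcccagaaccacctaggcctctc
Across the 12 promoters listed for the 10 genes, both strands were searched for 5 motifs. The STAT letters were in 1 of the 10 genes, Klk10, and in 7.02% of the 32851 promoters in the table. C/EBP letters (TTGCNNAA) were in 1, Klk11, in both of its listed promoters, and in 9.56% of all promoters. A gene could have more than 1 of the 12 promoters, so the gene counts and the promoter shares are not on the same scale. AP-1 letters (TGANTCA, 6.75% of all promoters), NF-kB letters (GGG and TTTCC with 2 bases between, 1.41%) and Grainyhead-like letters (AACCNGTT, 1.79%) were in none of the 10. The promoter of Klk13 thus held no match to any of the 5 motifs, like that of Klk5. A match describes letters in this window only.

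Among the proteases best known for shedding of the cornified layer, Klk7 was the most abundant. Klk7 (gene ID 23993, chr7:43811294-43816387, 6 exons) encodes the chymotrypsin-like enzyme of the cornified layer, which cleaves corneodesmosin and desmocollin 1. It stood at 1150, 1263, 1433 and 1485 CPM in the oral IL-23 libraries, against 209.8, 245, 245 and 263 CPM in the oral vehicle libraries. In the intraperitoneal libraries it stood at 769.8, 1209, 1280 and 1958 CPM after IL-23, against 267.5, 305, 356.5 and 396 CPM after vehicle. The lowest IL-23 library held 1.94 times the level of the highest vehicle library. Its log2 fold change was 2.47 ± 0.21 (SE) in the oral comparison (adjusted p = 6.96e-08) and 1.98 ± 0.21 in the intraperitoneal one (adjusted p = 6.81e-07, edgeR for both).

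Klk5 (gene ID 68668, chr7:43834157-43851181, 5 exons) encodes the trypsin-like enzyme that can start the cascade by activating the zymogens of KLK7 and KLK14. It had the smallest rise of the 10. Oral libraries held 126, 134, 146 and 166 CPM after IL-23, against 37.1, 46.4, 49.15 and 54.1 CPM after vehicle. Intraperitoneal libraries held 73.95, 129.8, 135.5 and 226 CPM after IL-23, against 55.65, 60.8, 61.2 and 69.01 CPM after vehicle. The lowest intraperitoneal IL-23 library, number 28, came within 1.07 times of the highest vehicle library, the narrowest gap among the 10 genes over both routes. The log2 fold change by edgeR was 1.61 ± 0.23 in the oral comparison (adjusted p = 1.17e-05) and 1.19 ± 0.22 in the intraperitoneal one (adjusted p = 0.000221).

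Klk14 (gene ID 317653, chr7:43680880-43695536, 5 exons) encodes a trypsin-like enzyme that, in human cornified layer, carries much of the trypsin-like activity and cleaves protease-activated receptor 2. Its RNA was close to the detection limit, with 75 counts over the 8 IL-23 libraries and 23 counts over the 8 vehicle libraries. Oral libraries held 12, 6, 8 and 17 counts after IL-23, against 4, 2, 3 and 3 counts after vehicle. Intraperitoneal libraries held 9, 8, 10 and 5 counts after IL-23, against 2, 0, 3 and 6 counts after vehicle. In CPM the groups did not overlap, with 0.725 to 1.97 CPM after IL-23 and 0 to 0.6 CPM after vehicle over both routes. The log2 fold change with no count filter was 2.34 ± 0.54 in the oral comparison (adjusted p = 0.00118) and 2.13 ± 0.56 in the intraperitoneal one (adjusted p = 0.00396), by edgeR.

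Klk8 and Klk11 rose by amounts close to those of Klk5. Klk8 (gene ID 259277, chr7:43797532-43803826) encodes neuropsin, a trypsin-like protease known from mouse hippocampus and from the epidermis. It stood at 144, 177, 184 and 190.5 CPM in the oral IL-23 libraries, against 34.3, 48.75, 49.6 and 54.2 CPM in the oral vehicle libraries. In intraperitoneal libraries Klk8 stood at 95.98, 150.4, 151 and 274 CPM after IL-23, against 49.2, 51.4, 54.2 and 64.7 CPM after vehicle. Log2 fold changes of Klk8 were 1.90 ± 0.23 in the oral (adjusted p = 2.74e-06) and 1.61 ± 0.23 in the intraperitoneal comparison (adjusted p = 1.62e-05). Klk11 (gene ID 56538, chr7:43774617-43779263) encodes hippostasin, another trypsin-like member. Its oral libraries held 145, 149, 165 and 174 CPM after IL-23, against 41.3, 43.1, 50.6 and 52.8 CPM after vehicle. Its intraperitoneal libraries held 103, 136, 165.5 and 195 CPM after IL-23, against 47.5, 52.6, 55.3 and 62.9 CPM after vehicle. Klk11 varied least among vehicle libraries, with its highest 1.52 times its lowest, and its log2 fold changes were 1.75 ± 0.15 in the oral (adjusted p = 8.94e-08) and 1.46 ± 0.15 in the intraperitoneal comparison (adjusted p = 6.66e-07, edgeR).

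Klk6 and Klk13, minor members after vehicle, had the largest rises of the 10. Klk6 (gene ID 19144, chr7:43824438-43832027, 7 exons) encodes neurosin, a trypsin-like protease abundant in the brain and also made in skin, which can cleave protease-activated receptors. Oral libraries held 819, 895.5, 1155 and 1180 CPM after IL-23, against 11.5, 33.1, 33.6 and 34.7 CPM after vehicle. Intraperitoneal libraries held 551, 821, 927 and 1322 CPM after IL-23, against 8.11, 21.8, 51.9 and 53.5 CPM after vehicle. The lowest IL-23 library was 10.3 times the highest vehicle library, although vehicle libraries themselves spanned 6.60-fold. Its log2 fold change was 5.16 ± 0.50 in the oral comparison (35.8-fold, adjusted p = 2.33e-07) and 4.76 ± 0.49 in the intraperitoneal one (27.1-fold, adjusted p = 5.83e-07), by edgeR.

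Klk13 (gene ID 626834, chr7:43712567-43727864, 6 exons) encodes a trypsin-like protease known in human tissue from stratified squamous epithelia such as the oesophagus. It stood at 183.5, 191, 214.5 and 222 CPM in the oral IL-23 libraries, against 3.35, 5, 5.17 and 12.1 CPM in the oral vehicle libraries. In intraperitoneal libraries it stood at 108, 183, 189 and 269 CPM after IL-23, against 3.14, 4.30, 6.20 and 10.2 CPM after vehicle. Every IL-23 library held at least 8.93 times the highest vehicle level. The edgeR log2 fold change was 5.04 ± 0.36 in the oral comparison (32.9-fold, adjusted p = 1.22e-08) and 4.98 ± 0.36 in the intraperitoneal one (31.5-fold, adjusted p = 2.02e-08). In the mean over routes it was the 54th largest rise of the 14671 genes tested, and Klk6 was the 55th.

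Klk9, Klk10 and Klk12 formed a middle band. Klk9 (gene ID 101533, chr7:43791625-43796758) encodes a member whose human form is chymotrypsin-like. Its oral libraries held 355, 398, 412 and 543 CPM after IL-23, against 21, 26.4, 33.7 and 36.7 CPM after vehicle. Its intraperitoneal libraries held 209, 349.7, 377 and 697 CPM after IL-23, against 28.1, 37.4, 51.9 and 60.4 CPM after vehicle. That made Klk9 the third most abundant kallikrein RNA after IL-23, with log2 fold changes of 3.86 ± 0.33 (oral, adjusted p = 6.81e-08) and 3.20 ± 0.32 (intraperitoneal, adjusted p = 3.99e-07, edgeR).

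Klk10 (gene ID 69540, chr7:43781054-43785410) encodes the member whose human form was described as a normal epithelial cell-specific gene. Oral libraries held 147.5, 164, 165 and 227 CPM after IL-23, against 11.8, 17.5, 17.8 and 18.05 CPM after vehicle. Intraperitoneal libraries held 111, 124, 138 and 238.5 CPM after IL-23, against 10.8, 13.5, 15.7 and 27.2 CPM after vehicle. The lowest of the 8 IL-23 libraries was 4.09 times the highest vehicle library. Log2 fold changes of Klk10 by edgeR were 3.43 ± 0.28 in the oral (adjusted p = 4.7e-08) and 3.18 ± 0.28 in the intraperitoneal comparison (adjusted p = 1.19e-07).

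Klk12 (gene ID 69511, chr7:43768891-43773581), a trypsin-like member, was scarce, with 409 counts over the 8 IL-23 libraries and 42 counts over the 8 vehicle libraries. Oral libraries held 4.47, 7.06, 8.19 and 12.8 CPM after IL-23, against 0.406, 0.477, 0.487 and 0.533 CPM after vehicle. Intraperitoneal libraries held 3.115, 4.28, 5.14 and 9.24 CPM after IL-23, against 0.196, 0.264, 0.400 and 0.874 CPM after vehicle. The groups lay far apart in spite of the low counts. The log2 fold change by edgeR was 4.05 ± 0.44 in the oral (adjusted p = 9.22e-07) and 3.57 ± 0.46 in the intraperitoneal comparison (adjusted p = 6.37e-06).

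Libraries that were high for one kallikrein were usually high for the others. Intraperitoneal IL-23 library 25 was the highest of the 8 IL-23 libraries in 8 of the 10 genes, and intraperitoneal IL-23 library 28 was the lowest in 9. Among vehicle libraries, intraperitoneal library 59 was the highest in 7. The same libraries sat at the ends of the spinous and granular layer list of 16 genes: its mean log2 CPM was 10.5 in library 25 and 9.07 in library 28, with the other IL-23 libraries in between, and 8.95 in library 59, the highest of the vehicle libraries. Library 28 also had the highest macrophage and T cell level, a mean log2 CPM of 5.01 where the other 7 IL-23 libraries ran from 2.69 to 3.33, and the highest fibroblast, fat and cartilage level (5.83, the others 4.89 to 5.53). It had the lowest pan-keratinocyte level (9.65, the others 9.87 to 10.1), the lowest sebaceous level (6.56, the others 6.75 to 7.09) and the lowest sweat and salivary gland level (1.20, the others 1.70 to 2.01). The part of these list levels in the differences between libraries was not tested. Leaving out any 1 library kept every filtered kallikrein gene called higher in both routes, 9 or 10 genes depending on whether Klk14 passed the filter. In the intraperitoneal comparison, every kallikrein had a smaller log2 fold change without library 25 and a larger one without library 28. Those directions follow from the choice of these libraries, which lay at the high and low ends of the same genes, so only the sizes are of use. Klk5 was at 0.87 without library 25 and 1.43 without library 28, and Klk8 was at 1.27 without 25 and 1.82 without 28. Klk7 was at 1.72 without 25 and 2.18 without 28, Klk11 at 1.31 and 1.62, and Klk14 at 1.97 and 2.21 in the same settings. Klk9 was at 2.82 without 25 and 3.44 without 28, Klk10 at 2.89 and 3.33, and Klk12 at 3.20 and 3.78. Klk6 stayed between 4.52 (without 25) and 4.96 (without 28), and Klk13 between 4.76 (without 25) and 5.19 (without 28).

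The summed level of the 10 genes ran from 2027 to 5190 CPM over the 8 IL-23 libraries (median 3353) and from 373 to 738 CPM over the 8 vehicle libraries (median 499). Its makeup differed between the agents. Klk7 gave 37.4 ± 0.94% of the kallikrein counts after IL-23 and 53.7 ± 2.5% after vehicle (SD, n = 8 each). Klk6 gave 27.2 ± 1.4% after IL-23 and 5.56 ± 2.3% after vehicle. Klk13 gave 5.56 ± 0.36% after IL-23 and 1.15 ± 0.57% after vehicle, while Klk9 gave 11.6 ± 1.2% after IL-23 and 6.77 ± 1.0% after vehicle. Klk5, the initiator, made up 4.00 ± 0.28% after IL-23 and 10.2 ± 0.91% after vehicle. Klk8 was also a smaller share, 4.82 ± 0.29% after IL-23 and 9.63 ± 0.92% after vehicle, and so was Klk11, at 4.46 ± 0.47% after IL-23 and 9.73 ± 1.4% after vehicle.

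On a scale of CPM per kb of principal transcript, which allows levels of different genes to be set side by side, Klk7 (696 ± 178) and Klk6 (688 ± 178) led after IL-23, and their ranges overlapped. Klk9 followed at 283 ± 98.4, and its range touched both neighbours. Klk8, Klk11, Klk10, Klk5 and Klk13 then lay between 129 and 108 CPM per kb with overlapping ranges. Klk12 (6.09 ± 2.88) and Klk14 (0.976 ± 0.363) were far below and separate from each other. After vehicle, Klk7 stood alone at 151 ± 33.1 CPM per kb. Klk5 (43.7 ± 8.03), Klk11 (40.3 ± 5.49), Klk8 (38.4 ± 6.38), Klk9 (25.0 ± 8.97), Klk6 (22.3 ± 12) and Klk10 (12.1 ± 3.74) followed, each overlapping the next. Klk13 (3.41 ± 1.79), Klk12 (0.408 ± 0.183) and Klk14 (0.200 ± 0.136) were the lowest, and the last pair overlapped.

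The ratio of each member to Klk7 in the same library does not depend on how libraries are scaled, apart from the prior count of 2, and it differed between IL-23 and vehicle for all 8 members that could be set against Klk7. In each of the 16 comparisons the 4 IL-23 and the 4 vehicle ratios did not overlap, and the 2-sided exact permutation test gave an adjusted p of 0.0286 over the 16, the smallest p that 4 against 4 allows. Klk12 passed the count filter only through its IL-23 libraries, so its ratios carry no weight among the 16. Klk6 and Klk13 gained most on Klk7, by similar amounts. The log2 ratio of Klk6 was -0.41 ± 0.11 after IL-23 and -3.21 ± 0.65 after vehicle in oral libraries (SD, n = 4 each). In intraperitoneal libraries it was -0.52 ± 0.05 after IL-23 and -3.62 ± 1.03 after vehicle (SD, n = 4 each). Klk6 thus gained 2.80 in oral and 3.10 in intraperitoneal libraries. Klk13 gained 2.63 in oral and 3.07 in intraperitoneal libraries. Klk9, Klk10 and Klk12 gained between 0.95 and 1.40 on the log2 scale. Klk5 lost ground to Klk7, with log2 differences of -0.85 (oral) and -0.83 (intraperitoneal). The differences for Klk8 were -0.56 (oral) and -0.40 (intraperitoneal), and those for Klk11 were -0.71 (oral) and -0.49 (intraperitoneal). Without library 25 or 28 the intraperitoneal ratios to Klk7 kept their directions, with Klk6 at 3.11 and 3.09, Klk13 at 3.09 and 3.08, and Klk5 at -0.87 and -0.78. A ratio shows unequal change only, since Klk5, Klk8 and Klk11 all rose in CPM.

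**Figure D2:**
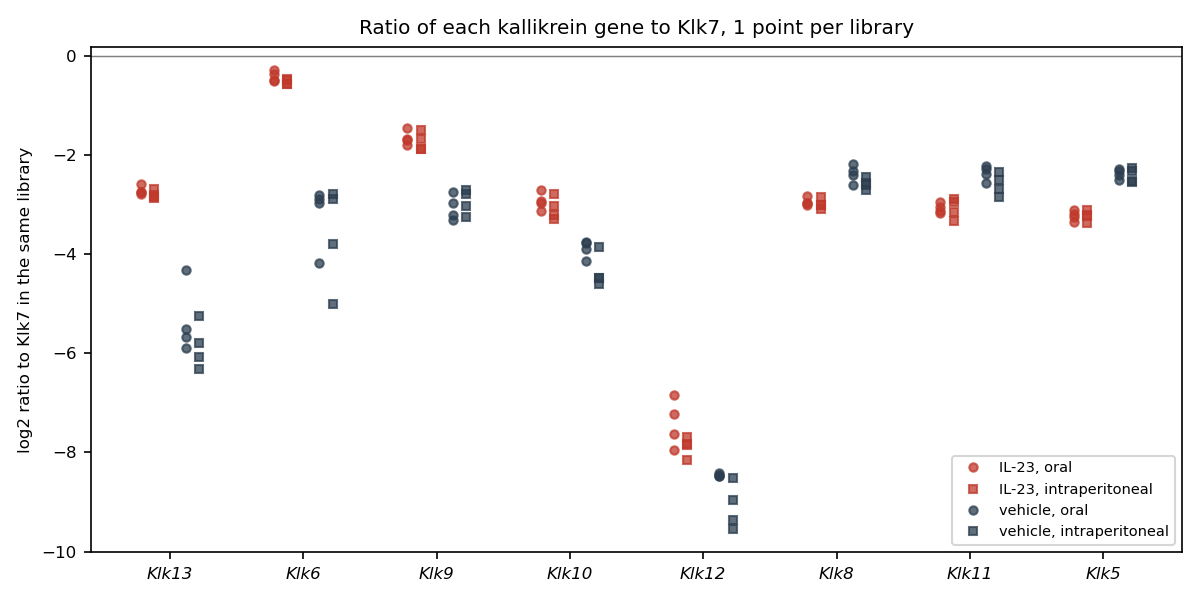
Log2 ratio of each kallikrein gene to Klk7 in the same library, 1 point per library, IL-23 (red) left of vehicle (blue) within each gene, circles for oral and squares for intraperitoneal. IL-23 points lie above vehicle points for Klk13, Klk6, Klk9, Klk10 and Klk12 and below them for Klk8, Klk11 and Klk5, with no overlap within a route. Klk12 passed the count filter only through its IL-23 libraries.

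The response did not differ detectably between routes for any kallikrein. The differences of the IL-23 effect (intraperitoneal minus oral) ran from -0.66 ± 0.42 for Klk9 to -0.06 ± 0.50 for Klk13 on the log2 scale, all of them below 0. With libraries scaled on the spinous and granular list, those of Klk10, Klk11, Klk13 and Klk14 were above 0, at 0.01 to 0.22. Without intraperitoneal vehicle library 59, those of Klk10 (0.11), Klk12 (0.17) and Klk13 (0.39) were above 0. Without intraperitoneal vehicle library 67, that of Klk14 was at 0.55. The interval for Klk7, the gene with the smallest unadjusted p (0.0987), ran from -1.10 to 0.12, and its adjusted p was 0.875 by edgeR. No gene of the 14671 was called in this contrast by edgeR, with 796 (5.43%) below an unadjusted p of 0.05, none of them a kallikrein, while DESeq2 called 1 gene and limma-voom none. Intraperitoneal against oral IL-23 libraries gave no edgeR call either, with 1874 genes (12.8%) below an unadjusted p of 0.05, 57 DESeq2 calls and none by limma-voom. Intraperitoneal against oral vehicle libraries gave no call by edgeR, 1087 genes (7.41%) below an unadjusted p of 0.05, 1 DESeq2 call and none by limma-voom. No kallikrein was among the DESeq2 calls. In the vehicle libraries Klk7 averaged 331 ± 56.6 CPM with intraperitoneal and 241 ± 22.4 CPM with oral dosing (SD, n = 4 each), a log2 difference of 0.46 ± 0.20 (edgeR, unadjusted p = 0.0343, adjusted p = 0.66).

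**Figure D3:**
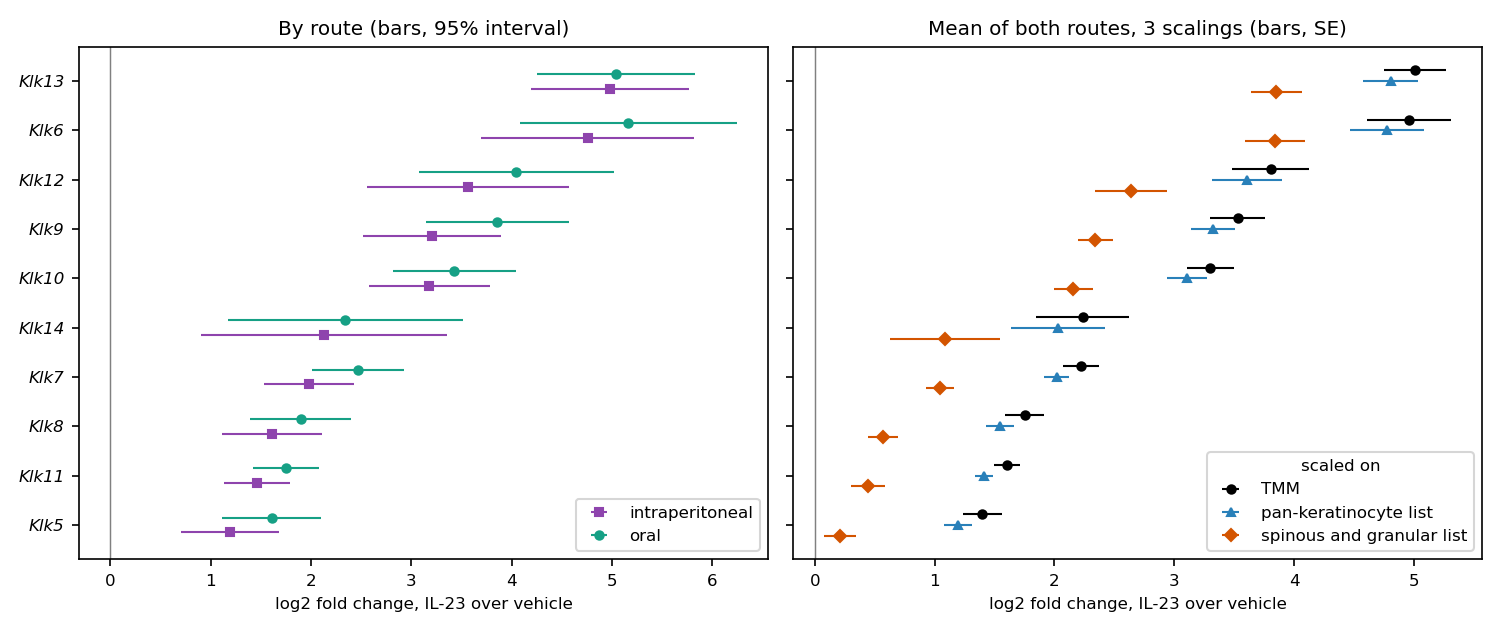
Log2 fold change of each kallikrein gene, IL-23 over vehicle: by route with 95% intervals on the left, and as the mean of both routes with SE under 3 ways of scaling the libraries on the right. The order of the genes is nearly the same in both routes, and scaling on the spinous and granular list (orange) brings Klk5 to 0.21 while Klk13 and Klk6 stay at 3.85 and 3.84.

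Many genes of the spinous and granular layers rose as well, but not the granular-layer markers Lor and Flg. In bulk RNA, more cells of a type and more RNA per cell cannot be told apart. Of the 16 spinous and granular layer genes, 13 were called higher and 3 did not pass in the mean over routes (34.9% of all genes tested were called higher and 38.7% lower), with the mean log2 CPM of the list at 9.07 to 10.5 in IL-23 libraries and 8.16 to 8.95 in vehicle libraries. Krt1 (log2 fold change 3.45), Tgm1 (2.35), the transglutaminase that crosslinks the cornified envelope, Lypd3 (2.10) and Grhl3 (1.68) led that list. The 3 that did not pass were Lor, for loricrin (-0.29 ± 0.23, adjusted p = 0.272 by edgeR), Flg, for filaggrin (-0.32 ± 0.34, adjusted p = 0.391), and Calml3 (-0.17 ± 0.14, adjusted p = 0.262). Pan-keratinocyte genes moved less, with 10 of 14 called higher and 3 lower, and a mean log2 CPM of 9.65 to 10.1 in IL-23 and 9.60 to 9.91 in vehicle libraries. The largest changes in that list were falls, in Col17a1 (log2 fold change -1.25) and Lamb3 (-1.08), ahead of rises in Jup (0.90) and Krt14 (0.89). With libraries scaled on the pan-keratinocyte list, all 9 kallikrein calls stood, with log2 fold changes from 1.20 for Klk5 to 4.81 for Klk13. With libraries scaled on the spinous and granular list, which moved the median of all genes by over a log2 unit (to -1.15), Klk5 was 0.21 ± 0.13 (adjusted p = 0.127 by edgeR) and no longer called. Klk11 (0.45 ± 0.14) and Klk8 (0.57 ± 0.13) stayed called by the mean over routes, as did Klk7 (1.05 ± 0.12), Klk10 (2.16 ± 0.16), Klk9 (2.34 ± 0.15), Klk12 (2.64 ± 0.30), Klk6 (3.84 ± 0.25) and Klk13 (3.85 ± 0.21). Klk14 stood at 1.09 ± 0.46 (adjusted p = 0.0295), and lost its call in each route taken alone.

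Other marker lists moved too, in the mean over routes, where 34.9% of all genes tested were called higher and 38.7% lower. All 12 skeletal muscle genes were lower (mean log2 CPM 6.48 to 7.44 in IL-23, 7.71 to 8.76 in vehicle libraries), and 8 of 11 fibroblast, fat and cartilage genes were lower with none higher (4.89 to 5.83 in IL-23, 6.11 to 6.62 in vehicle libraries). Of 7 neutrophil genes tested, 7 were higher, 3 of which passed the filter only through the IL-23 libraries (3.65 to 5.23 in IL-23, 0.10 to 1.52 in vehicle libraries). S100a8 weighed heavily in that level, at 10280 ± 1660 CPM after IL-23 and 27.1 ± 12.7 CPM after vehicle. Cxcr2, the next most abundant after IL-23, stood at 22.5 ± 5.89 CPM there and 1.25 ± 0.78 CPM after vehicle. The list level thus cannot be read as neutrophil content. The neutrophil genes Elane, Mpo, Ly6g, Ngp and Ltf were at or near 0 in both agents and too low to test. Of 12 macrophage and T cell genes, 7 were higher and none lower, 3 of those tested having passed only through the IL-23 libraries (2.69 to 5.01 in IL-23, 1.93 to 2.98 in vehicle libraries). Gland lists went the other way: 5 of 6 sweat and salivary gland genes were lower (1.20 to 2.01 in IL-23, 2.93 to 3.15 in vehicle libraries), with Prol1 and Smr3a at 0 in all libraries, and 7 of 12 sebaceous genes were lower with 2 higher (6.56 to 7.09 in IL-23, 6.89 to 7.55 in vehicle libraries). Of 12 hair follicle genes, 6 were lower and 3 higher (3.73 to 4.49 in IL-23, 4.05 to 4.55 in vehicle libraries). Their part in the kallikrein values was not tested.

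Among the genes whose products restrain kallikreins, Spink5 rose. Spink5, which encodes LEKTI, averaged 662 ± 125 CPM after IL-23 and 294 ± 35.3 CPM after vehicle (SD, n = 8 each), and its log2 fold change was 1.17 ± 0.11 (edgeR, adjusted p = 5.85e-08). Spink12 (4.51 ± 1.67 CPM after IL-23, 0.704 ± 0.404 CPM after vehicle) and Spink4 (1.60 ± 0.88 CPM after IL-23, 0.210 ± 0.208 CPM after vehicle) rose too, but both passed the count filter only through the IL-23 libraries. Of the 3 Kazal-type genes that did not, 2 were called higher in the mean over routes, Spink5 and Spink6, beside 34.9% of all genes tested. Spink6 was at 0.47 ± 0.15 there, at 0.53 in the oral comparison (adjusted p = 0.0365 by edgeR) and at 0.40 in the intraperitoneal one (adjusted p = 0.101), where it was not called. Set against Spink5 in the same library, Klk7 was higher after IL-23 by 1.32 in oral and 0.74 in intraperitoneal libraries on the log2 scale, with no overlap. The exact permutation p was 0.0286 for each, but 0.0572 after adjustment over the 6 ratios to Spink5. Klk5 against Spink5 differed by 0.47 in oral (adjusted p = 0.0572, exact permutation test) and by -0.08 in intraperitoneal libraries (adjusted p = 0.571), where it stood at -0.21 without library 25 and 0.01 without library 28. Klk14 against Spink5 differed by 0.52 in oral and 0.51 in intraperitoneal libraries, with overlapping groups (adjusted exact permutation p = 0.3 and 0.377).

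Of 14 other protease inhibitor genes, 11 were higher, 2 lower and 1 did not pass, beside 34.9% higher and 38.7% lower over all genes tested. Most of the 14 encode inhibitors of serine proteases, but Cst6 encodes a cysteine protease inhibitor. Wfdc12 had the largest rise (log2 fold change 5.21 ± 0.22, 48.3 ± 13.0 CPM after IL-23 and 1.34 ± 0.56 CPM after vehicle), followed by Slpi (4.03), the secretory leukocyte protease inhibitor, Wfdc18 (4.03), which passed the filter only through the IL-23 libraries, and Serpinb6c (3.23). Serpina12, which encodes vaspin, a serpin that inhibits KLK7, went against the list and against Klk7: it averaged 14.6 ± 8.67 CPM after IL-23 and 95.7 ± 11.1 CPM after vehicle, a log2 fold change of -2.73 ± 0.26 (adjusted p = 7.18e-08 by edgeR). Serpina12, and the genes St14, Prss8, F2rl1, Dsg1a, Dsg1b, Dsg1c and Flg below, were picked for their known links to kallikreins. Lor and Calml3 above were picked because they did not pass. All of these were picked after their values had been seen.

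Among 16 genes for activating and other epidermal serine proteases, 11 were higher, 3 lower and 2 did not pass. Prss27 (5.45), Prss22 (4.34), Tmprss11d (3.83) and Prss53 (3.59) had log2 fold changes above that of Klk9 (3.53), Tmprss11d having passed the filter only through the IL-23 libraries. St14, which encodes matriptase, an activator of kallikrein zymogens, rose by 0.57 ± 0.09. Prss8, which encodes prostasin, was called at 0.74 ± 0.18 in the oral comparison (adjusted p = 0.00176 by edgeR) and not in the intraperitoneal one (0.18 ± 0.18, adjusted p = 0.402), and the difference between routes was not called (-0.56 ± 0.25, adjusted p = 0.875). Of 11 other proteases of cornification tested, 9 were higher and none lower, led by Casp14 (2.33), Blmh (2.24), Capn12 (1.91) and Ctsl (1.31). Of the 11 tested substrates and targets of kallikreins, 4 were higher, 3 lower and 4 did not pass, beside the 34.9% higher and 38.7% lower over all genes tested. Il1b, whose precursor kallikreins can process, rose by 3.63 ± 0.42, and the corneodesmosome genes Dsc1 (1.91 ± 0.14) and Cdsn (1.59 ± 0.20) rose too. F2r, which encodes protease-activated receptor 1, fell by 1.25 on the log2 scale. Log2 fold changes of Dsg1a (0.17 ± 0.10), Flg (-0.32 ± 0.34) and F2rl1, for protease-activated receptor 2 (0.17 ± 0.08, adjusted p = 0.0507 by edgeR), did not pass. The other Dsg1 genes of the list were split. Dsg1b was among the 4 called higher (1.13 ± 0.11, adjusted p = 1.03e-07 by edgeR), and Dsg1c (0.43 ± 0.29) did not pass.

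**Figure D4:**
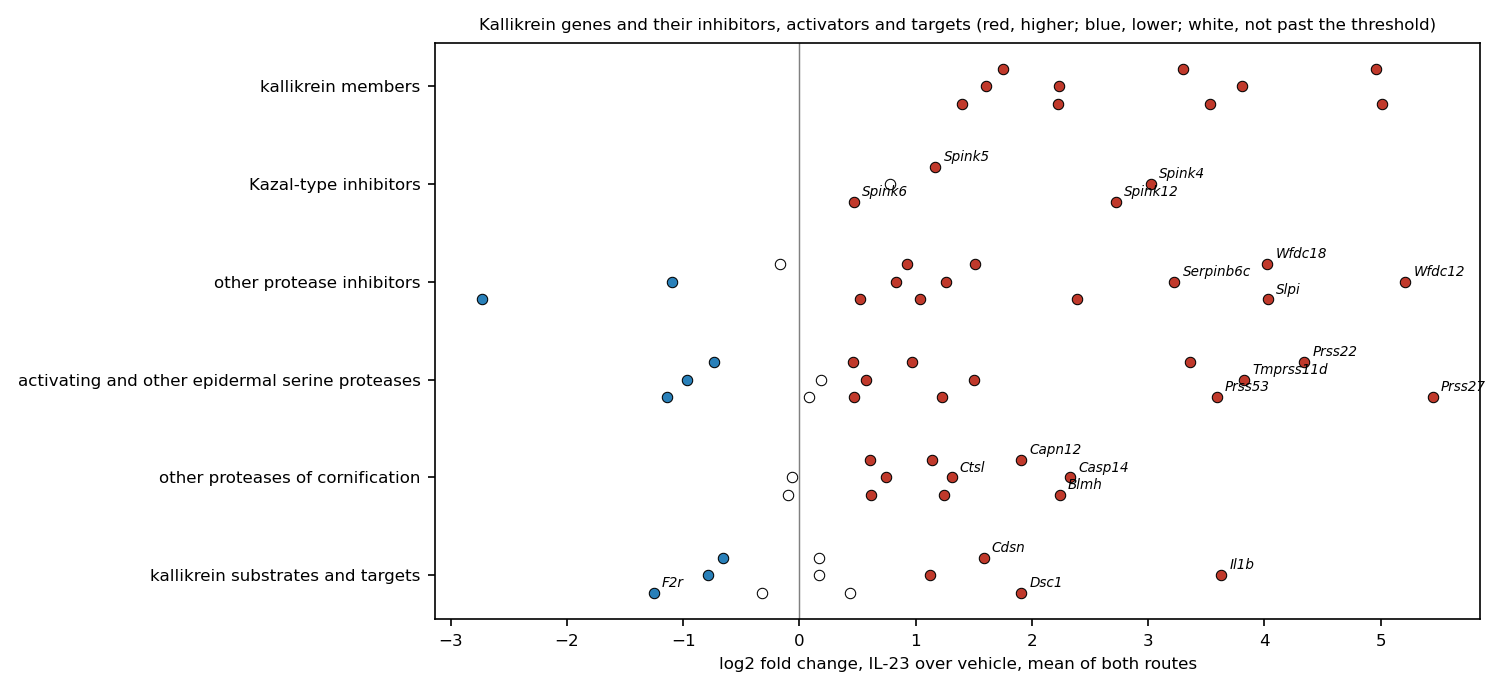
Log2 fold change, IL-23 over vehicle and averaged over routes, of the 10 kallikrein genes and of the tested genes of 5 lists, 1 point per gene, red for called higher, blue for called lower and white for not past the threshold. All kallikrein points lie between 1.40 and 5.01, while the substrates and targets lie on both sides of 0.

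Profiles over the 16 libraries were compared by the root mean square (RMS) difference of log2 CPM, each profile centred on its own mean. Within the cluster, Klk5 and Klk8 were nearest to each other (0.215), Klk10 and Klk12 were nearest to each other (0.271), and Klk6 and Klk13 were nearest to each other (0.418). Outside it, the genes nearest to Klk13 were Lce3e (RMS 0.319), a late cornified envelope gene, and Wfdc12 (0.364). The median distance of all genes tested from Klk13 was 2.61. Lce3e (0.385) and Sprr2h (0.417) were nearest to Klk6 (median 2.70). Rnase2b (0.427) and Cnfn (0.437), which encodes cornifelin, were nearest to Klk12 (median 1.78). These genes were picked for the 2 smallest distances, so lying under the median carries no weight. IL-23 and vehicle libraries entered together, so a distance includes the change between agents. The log2 fold change was 5.01 for Klk13, 5.19 for Lce3e and 5.21 for Wfdc12. Lce3e and Sprr2h belong to families of similar genes whose reads may be shared.

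Beyond the 10 genes the kallikrein family was almost silent. The 16 other Klk genes in the table, which include the glandular Klk1 and the Klk1b genes, held 28 counts in all libraries together, 11 of them held none, and none passed 3 counts in a library. Klk4, the next gene past Klk5, had 3 counts over the IL-23 libraries and 1 over the vehicle libraries, and Klk15 beyond it had none. On the other side, Ctu1, next to Klk14, rose by 0.42 ± 0.12 (9.58 ± 1.76 CPM after IL-23, 7.12 ± 0.64 CPM after vehicle). Siglece, a myeloid lectin gene beyond Ctu1, rose by 2.27 ± 0.27 (2.79 ± 0.99 CPM after IL-23, 0.57 ± 0.20 CPM after vehicle). With 52 counts over the vehicle libraries, Siglece passed the count filter only through the IL-23 libraries, so its rise carries no weight. The 10 transcripts share no run of 50 bases in any of their 45 pairs, and the longest shared run was 31 bases. In GENCODE M21, the gene 2310002F09Rik on the opposite strand overlaps 24.8% of the exon bases of Klk8 and 22.6% of those of Klk14. Its RefSeq position, chr7:43745466-43755936, lies between Klk13 and Klk12 and reaches neither Klk8 nor Klk14. Which annotation served for the counting is unknown, and so is whether strand was taken into account. The gene 2310002F09Rik held 10 counts over the IL-23 libraries and 48 over the vehicle libraries, opposite in direction to Klk8 and Klk14.

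**Figure D5:**
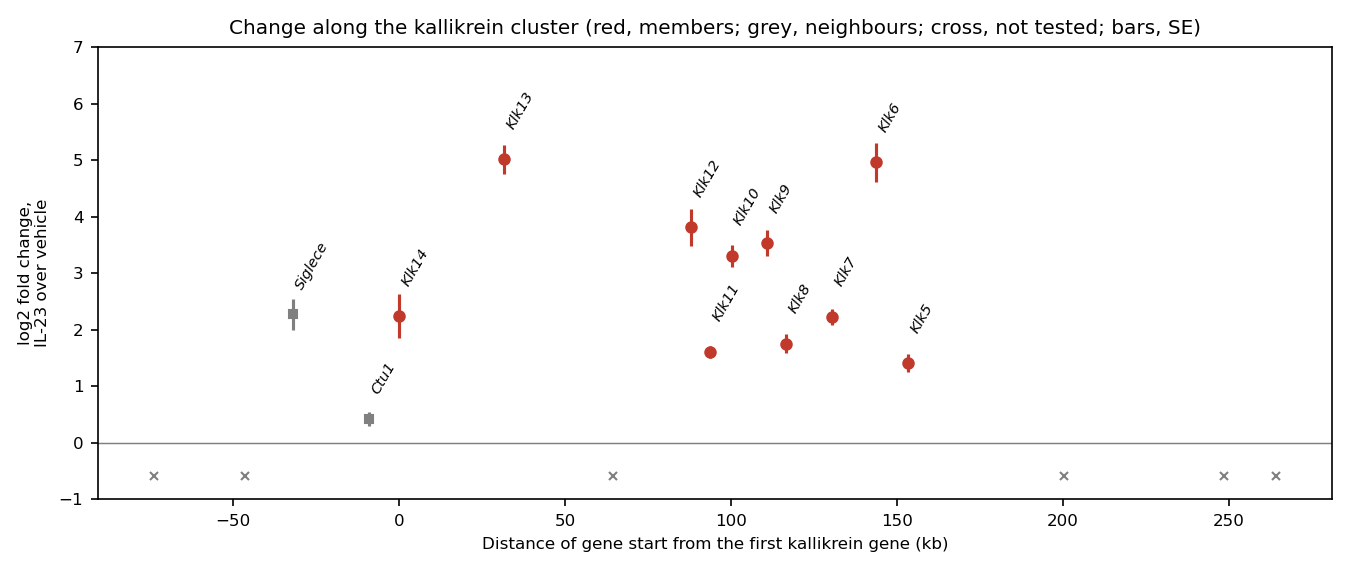
Log2 fold change, IL-23 over vehicle and averaged over routes, with SE, against the distance of each gene's start from that of Klk14 in kb. Red circles are the 10 kallikrein genes, grey squares are tested neighbours and crosses are neighbours too low to test: large rises (Klk13, Klk12, Klk10, Klk9, Klk6) are interleaved with smaller ones (Klk11, Klk8, Klk7, Klk5). The tested neighbour Siglece passed the count filter only through the IL-23 libraries.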

How the data were processed

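Total RNA of 16 mouse samples was made into TruSeq stranded libraries for Illumina HiSeq sequencing, per the labels' protocols. The submitters' processing notes list FastQC, STAR (2.52 as written there), featureCounts, Subread 1.5.0 and the genome GRCm38. Values were deposited by the authors as raw counts of reads for each gene. Neither the annotation release nor the strand setting nor the handling of multimapping reads is given in the sources used here.

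The edgeR 4.0.16 package in R 4.3.3 was run on these counts: TMM factors, filterByExpr on the 4 groups (minimum count 10, 14671 genes kept), and a quasi-likelihood fit of 4 group means with 12 residual degrees of freedom. Tests were 2-sided, adjusted by Benjamini and Hochberg over all genes tested, and called below an adjusted p of 0.05. The SE was obtained by dividing the size of a log2 fold change by the root of its F statistic. Klk14 comes from the same fit with no count filter (20799 genes). CPM use TMM-scaled library sizes, and ratios use log2 CPM with a prior count of 2. The edgeR step was tested on simulated data. DESeq2 1.42.0, limma-voom (limma 3.58.1), other scalings, other filters and leaving out each library were alternatives. Same-group libraries differed by more than sampling noise in all 24 pairs (chi-square per degree of freedom 5.53 to 47.3), so none was counted as a duplicate.

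Positions are from RefSeq (GRCm38.p6) and transcripts from GENCODE M21. Members, gene lists, tests and named genes were chosen with earlier results of these data known. Named genes are the 10 members, up to 4 called genes per list with the largest absolute change over both routes (the 2 most abundant where none was called), other Klk genes, and the 2 genes nearest in profile to each of the 3 members with the largest change. Intervals and SDs cover the spread between libraries.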

Additional observations from a re-analysis of the deposited data

Results flagged for a closer look

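A library that stood apart within its group of 4 was looked for in 40 groups (10 genes in 4 groups), and 2 were found, where chance gives about 1 in 20. Both were in vehicle library 51 of the oral group, which was the lowest of its group. Klk6 was at 11.5 CPM there, with the other 3 libraries of the group between 33.1 and 34.7 CPM. Klk10 was at 11.8 CPM there, with the others between 17.5 and 18.05 CPM. Without library 51 the oral log2 fold change of Klk6 was 4.93, against 5.16 with it.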

How the results depend on the processing

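No paired analysis was possible because the numbers that open the sample titles are shared by no pair of samples. The counts of kallikrein genes called were 9 or 10 in each IL-23 comparison and 0 in each route comparison under RLE, upper-quartile and keratinocyte scaling, plain library size, both other count filters, DESeq2, limma-voom, fits of only the groups compared (not run for the mean over routes and the difference between routes), and with each library left out in turn. Scaling on the spinous and granular list, an alternative chosen after seeing the data, gave 8 called in each IL-23 comparison. There Klk5 lost its call at 0.32 (oral, adjusted p = 0.106), 0.10 (intraperitoneal, adjusted p = 0.61) and 0.21 (mean, adjusted p = 0.127). Klk14 lost it at 1.04 (oral, adjusted p = 0.142) and 1.13 (intraperitoneal, adjusted p = 0.135). By its construction that scaling sets the listed genes to no mean change. Plain library size moved the median of all genes to -0.25 and upper-quartile factors to -0.13. Leaving out 1 library leaves 3 against 4, where the exact test cannot go below 0.0571, so those ratios are values with no test, and the log2 difference of Klk5 against Spink5 in intraperitoneal libraries then ran from -0.21 to 0.01. Depth limits Klk14 most, with at most 17 counts in a library.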
